A study of Mus musculus with 3 samples.

Results

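Natural killer cells of the mouse suprarenal aorta were picked out one cell at a time from droplet single-cell RNA libraries, and 89 of 5465 kept cell barcodes met the rule. A member had at least 1 unique molecular identifier (UMI, 1 captured RNA molecule) of Ncr1 or Klrb1c and at least 1 UMI of Nkg7. It had 0 UMIs of Cd3d, Cd3e and Cd3g, 0 of Cd79a, and less than 0.4% of its UMIs from C1qa, C1qb and C1qc. Ncr1 encodes the receptor NKp46 (mm10 chr7:4337724-4345164) and Klrb1c the receptor NK1.1 (chr6:128778485-128789215), and Nkg7 encodes a membrane protein of cytotoxic granules (chr7:43437073-43438249). The excluded genes mark T cells, B cells and macrophages. Members were thus chosen on measured values, and the levels of these genes in them are a description.

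There were 3 groups with 1 library each. Control was 5 pooled aortas of C57Bl/6 mice on chow. Room air was 5 pooled aortas of ApoE-/- mice that breathed room air on a Western, high fat diet for 16 weeks. Aneurysm was 4 pooled aortas of ApoE-/- mice on that diet for 16 weeks with cigarette smoke, all chosen for a measurable aneurysm. Ages and sexes were not given in the sources used here. Sorting of each pool took leukocytes (CD45+CD31-) and endothelial cells (CD45-CD31+). Room air against control therefore joins the loss of Apoe with the diet, and aneurysm against room air joins smoke with the choice of dilated aortas. Aneurysm against control joins the loss of Apoe, the diet, smoke and the choice of dilated aortas. In no comparison can these be told apart. No value below has a replicate, no p-value is given, and intervals cover counting error only.

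Natural killer cells are innate lymphocytes that kill target cells by releasing granzymes and perforin, and they recruit other leukocytes through chemokines such as CCL3, CCL4, CCL5 and XCL1. Their response is set by the balance of activating receptors, which signal through adaptors such as DAP12 (Tyrobp) and FcRγ (Fcer1g), and inhibitory receptors for MHC class I. In the mouse these MHC receptors are the Ly49 family, encoded by the Klra genes, and the CD94 and NKG2 pairs, encoded by Klrd1 and the Klrc genes. Each cell expresses its own subset of Ly49 genes.

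The kept barcodes numbered 778 in control, 1848 with room air and 2839 in aneurysm, and the libraries held 2568192, 9998517 and 16698309 UMIs. The stated viability was lowest in control at 73%, against 91% and 94%. Members had a median of 1696 UMIs in control, 2513 with room air and 3239.5 in aneurysm, and 35705, 30387 and 248686 UMIs in all. Where 3 values follow each other, they are in the order control, room air, aneurysm. Levels are given as CPM, a gene's share of the members' UMIs in a library on a scale of 1000000. Each UMI comes from the 3′ end of 1 molecule, so CPM does not grow with gene length. A single UMI was worth 28.0, 32.9 and 4.02 CPM, so low genes were measured far more finely in aneurysm. The libraries shared 4 barcodes between control and room air, 5 between room air and aneurysm and none between control and aneurysm, and none of these was a member. The deleted gene Apoe, a lipoprotein component that hepatic receptors bind, had 25 UMIs in control members, 0 with room air and 1 in aneurysm. Those control UMIs lay at 700 CPM, below the 1318 CPM in control B cells, which stand here for free RNA.

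Most members also had several natural killer cell genes that the rule did not use. Of 9 further markers (Eomes, Tbx21, Klrd1, Klrk1, Klre1, Prf1, Gzma, Il2rb, Tyrobp) the median member had 5.5 in control, 5 with room air and 6 in aneurysm, and at least 3 were found in 17 of 18, 10 of 11 and 59 of 60 members. A single UMI sufficed for each marker. In room air and in aneurysm, the 1 member with fewer than 3 was in each case rich in myeloid genes, as described below. The room air library had 1 such rich member and aneurysm had 5. The remaining rich members had at least 3 markers, so the panel sets only some of such cells apart. Klrk1, which encodes the activating receptor NKG2D, was found in 17, 10 and 58 members. Eomes, the transcription factor that marks conventional natural killer cells, stood at 168, 98.7 and 177 CPM and was at or near 0 in B cells. Itga1, which marks type 1 innate lymphoid cells of tissue, had 0 UMIs in each library. However, 18 of 20 genes on a list of such cells and of tissue residence were detected, at 3837, 3159 and 2553 CPM in all. The same list summed to 1522, 2173 and 1800 CPM in B cells. Itga2, a marker of conventional natural killer cells, also had 0 UMIs in control.

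Markers of other cells were low but not all absent. None of the genes on the lists for T cells, B cells and plasma cells, mast cells, γδ T cells and stroma reached 20 UMIs over all members. The rule fixed Cd3d, Cd3e, Cd3g and Cd79a at 0 in advance, so their absence is no evidence on T and B cells. Only 10 of 13 T cell genes, 8 of 11 B and plasma cell genes and 4 of 9 γδ T cell genes were among the genes measured. Mast cell and γδ T cell markers had 0 UMIs. Macrophage markers, with 14 of 14 genes detected, summed to 2493 CPM in control, 6417 with room air and 4443 in aneurysm, and B cells of the same libraries had 5522, 8968 and 6637. The dendritic cell list, whose UMIs are mostly MHC class II genes, summed to 1092, 19021 and 9514 CPM, against 46253, 48252 and 48695 CPM in B cells. In 6 members, 1 of room air and 5 of aneurysm, Lyz2, Cd74 and 3 MHC class II genes together took between 2.58% and 9.45% of the UMIs, and the highest share in the other 83 was 1.42%. The 5 of aneurysm held 21.9% of that library's member UMIs, and 3 of the 6 met the rule by a single receptor UMI and a single Nkg7 UMI. Their part in the results was not tested, but the shares, the counts of genes and the ratios of the named genes were also computed without them.

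The members made up 2.31% of kept barcodes in control (18 cells, exact Clopper-Pearson 95% interval 1.38% to 3.63%), 0.595% with room air (11 cells, 0.298% to 1.06%) and 2.11% in aneurysm (60 cells, 1.62% to 2.71%). Among barcodes with a UMI of the leukocyte gene Ptprc the shares were 3.63%, 0.798% and 2.65%. The room air share was the lowest, and its interval did not reach those of the other libraries. The sort sets how many leukocytes enter against endothelial cells, so these are shares of sorted cells.

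The room air share depended on the Cd3 limit. Outside the rule by exactly 1 Cd3 UMI lay 0 control, 8 room air and 10 aneurysm cells. Their median UMIs of Ncr1 and Klrb1c were 6 in room air and 4.5 in aneurysm, against 6 and 7.5 in the members, and their median Nkg7 was 15.5 and 9.5 UMIs, against 8 and 15. At the other edge, 2 control, 2 room air and 4 aneurysm members had a single receptor UMI. Cd3 RNA was also found in B cells, which should lack it, at a share of 7.08% in control, 40.6% with room air and 25.4% in aneurysm. Of these B cells with Cd3, 4 of 8, 54 of 99 and 92 of 153 had exactly 1 Cd3 UMI. The shares are not adjusted for depth. Whether such RNA put natural killer cells outside the limit was not tested. With at most 1 Cd3 UMI allowed, a limit chosen after seeing these cells, the members were 18, 19 and 70. The room air share was then 1.03% (0.620% to 1.60%), which overlaps the control interval but not that of aneurysm, 2.47% (1.93% to 3.10%).

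**Figure D1:**
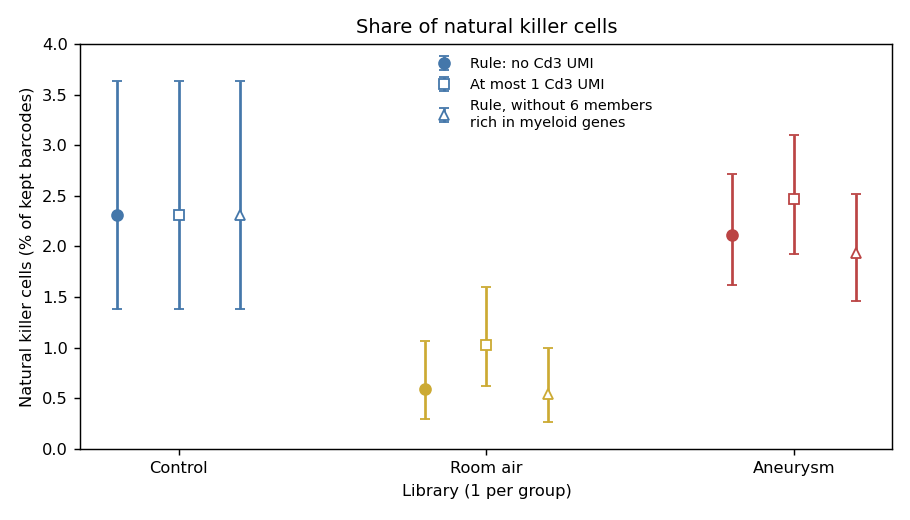
Natural killer cells as a percentage of kept barcodes in each library; points are shares and bars exact 95% binomial intervals, under the rule (filled circles), with at most 1 Cd3 UMI (squares) and without the 6 members rich in myeloid genes (triangles). Room air is lowest under all 3, at 0.595%, 1.03% and 0.541%.

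The members differed from the T cells of the same libraries in genes of receptors and granule proteins. T cells with Nkg7 and Cd3 but without Ncr1 and Klrb1c numbered 43 in control, 367 with room air and 396 in aneurysm. Of 972 genes with enough UMIs in every library, 25 (2.57%) were at least 2-fold higher and 11 (1.13%) at least 2-fold lower in natural killer cells in each library. The rule separates these populations, so the counts describe it. They include genes of the rule itself, Ncr1 and Klrb1c among the higher and Cd3d, Cd3e and Cd3g among the lower, whose direction was fixed in advance. Gzma, a trypsin-like granzyme (chr13:113093825-113100981), stood at 8262, 4410 and 6510 CPM in natural killer cells and at 333, 144 and 33.0 CPM in T cells. Gzmb, the granzyme that cleaves caspases (chr14:56258838-56262260), was 30.8-, 16.5- and 14.2-fold higher than in T cells. Klrk1 was 95.3-, 11.9- and 11.2-fold higher, the first of these with an interval of 25.1 to 807 because control T cells had few UMIs of it. The smallest of these ratios was that of Klrk1 in aneurysm.

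Signalling and transcription factor genes differed less. Tyrobp was 7.21-, 2.51- and 3.37-fold higher in natural killer cells and Fcer1g 6.51-, 3.16- and 2.86-fold, although both also lay between 756 and 1607 CPM in B cells, at which level free RNA may add to them. Id2, an inhibitor of E proteins needed by innate lymphocytes, was 12.7-, 2.71- and 3.39-fold higher. Irf8, a transcription factor of natural killer and myeloid cells, was 5.08-, 3.63- and 4.09-fold higher. On the lower side stood T cell genes: Cd8b1 had 0, 2 and 1 UMIs in the members against 1103, 634 and 636 CPM in T cells, and Lat, an adaptor of the T cell receptor, had 3, 2 and 9 UMIs against 381, 337 and 413 CPM. Il7r, the receptor for interleukin 7, had 0, 2 and 16 UMIs.

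**Figure D2:**
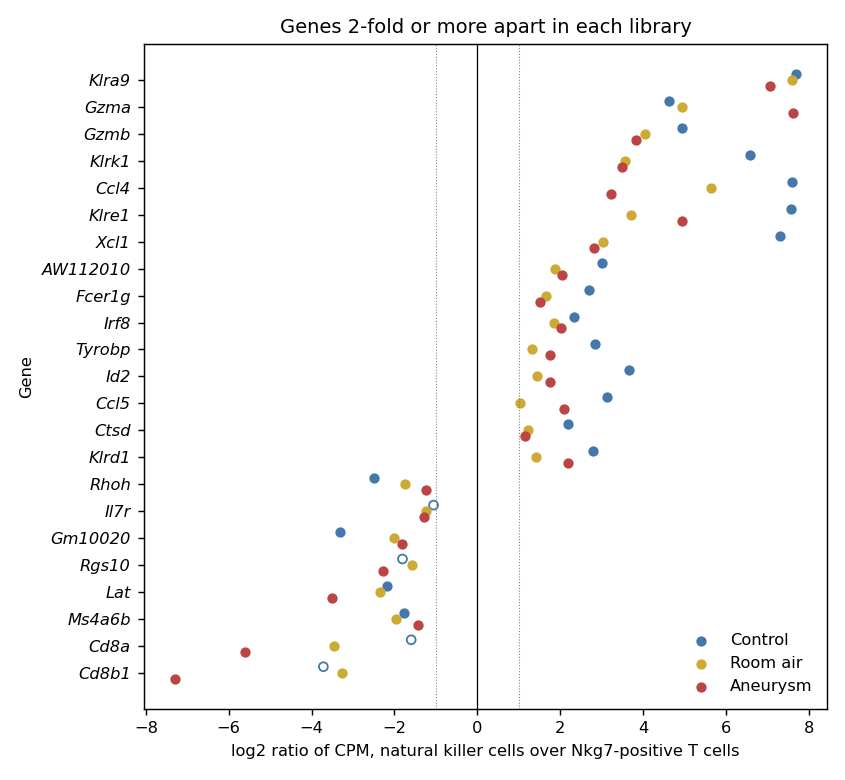
Log2 ratio of CPM in natural killer cells over Nkg7-positive T cells for the 15 higher and 8 lower named genes, 1 point for each library; open points are bounds where the members had 0 UMIs, computed against 3 counts. Gzma is 24.8-, 30.7- and 197-fold higher, and Cd8b1 is the lowest gene in control and aneurysm and Cd8a in room air.

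The libraries differed in which Ly49 receptor gene was most abundant in natural killer cells. The 11 Ly49 genes of the table had 124 UMIs in control members, 78 with room air and 770 in aneurysm, or 3473, 2567 and 3096 CPM in all. The summed level differed less between the libraries than that of single genes. Klra9, which encodes the inhibitory receptor Ly49I (chr6:130178675-130193112), stood at 1652 CPM in control (exact Poisson 95% interval 1258 to 2132), 724 with room air (454 to 1096) and 342 in aneurysm (273 to 423). It had at most 0.621 CPM in B cells of any library. Klra9 held 47.6% of all Ly49 UMIs in control (38.5% to 56.7%), 28.2% with room air (18.6% to 39.5%) and 11.04% in aneurysm (8.91% to 13.5%). In control 21 of its 59 UMIs lay in 1 cell. Cells with a Klra9 UMI were 10 of 18, 6 of 11 and 21 of 60, and after thinning each member to 1000 UMIs the expected shares were 51.2%, 37.5% and 24.6%.

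Klra7, which encodes the inhibitory receptor Ly49G (chr6:130218605-130233322), was lowest in control. It stood at 448 CPM in control (256 to 728), 987 with room air (666 to 1409) and 973 in aneurysm (854 to 1104). Its share of Ly49 UMIs was 12.9%, 38.5% and 31.4%. The room air and aneurysm levels did not differ beyond counting error, with a ratio of 0.986 (0.673 to 1.49). Klra7 was the most abundant Ly49 gene in 1 of 18 control members, 4 of 11 in room air and 16 of 60 in aneurysm, while Klra9 was so in 6, 1 and 7.

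The other Ly49 genes encode activating and inhibitory receptors. Klra8, which encodes Ly49H, the activating receptor for a cytomegalovirus protein (chr6:130115226-130129898), stood at 504, 165 and 760 CPM. Aneurysm was 4.62-fold above room air (1.94 to 14.4), which rests on 5 UMIs in room air, and the ratio was 2.20 with at most 1 Cd3 UMI allowed. Klra4, which encodes activating Ly49D, stood at 336, 494 and 479 CPM, and Klra3, which encodes inhibitory Ly49C, at 392, 197 and 398 CPM. Both sets of intervals overlapped between all libraries. Klra1, which encodes inhibitory Ly49A, had 3, 0 and 28 UMIs.

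Most members had more than 1 Ly49 gene. At least 2 were found in 13 of 18 control, 7 of 11 room air and 49 of 60 aneurysm members, and none was found in 3, 4 and 4. In aneurysm, Klra7 and Klra8 were found together in 22 members, Klra7 alone of the pair in 17, Klra8 alone in 11 and neither in 10. Klra9 is similar in sequence to its neighbours: of 98-base windows in the last 500 bases of its transcripts, 8.56% occur in another gene, mainly the pseudogene Klra11-ps, against 4.12% for Klra7, 3.53% for Klra3 and 0% for Klra8 and Klra4. How such reads were assigned was not tested, so the exact level of Klra9 is uncertain to that extent.

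**Figure D3:**
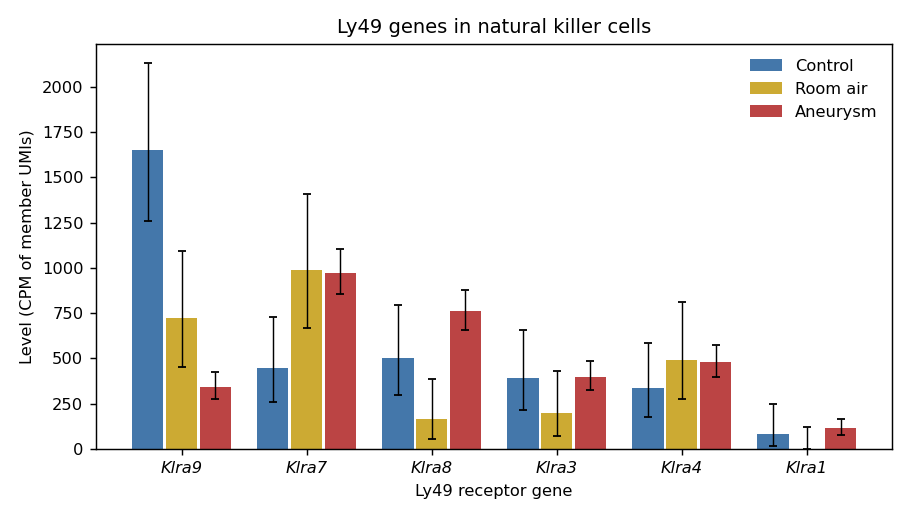
Levels of 6 Ly49 genes in natural killer cells in CPM, with exact 95% Poisson intervals, for the 3 libraries. Klra9 is highest in control at 1652 CPM and lowest in aneurysm at 342, while Klra7 is lowest in control at 448.

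Of the other MHC receptor genes, Klrd1, which encodes CD94, stood at 1428, 757 and 1106 CPM. Klrc1, which encodes inhibitory NKG2A, stood at 504, 165 and 438 CPM, and Klrc2, which encodes activating NKG2C, at 252, 197 and 366 CPM. These 2 transcripts share sequence (18.1% of the Klrc1 windows), so their split is uncertain. Klre1, a lectin-like receptor that pairs with other Klr chains, stood at 1512, 559 and 873 CPM. Room air was the lowest library for each of these 4. Its interval missed that of control for Klre1 alone, at 326 to 896 CPM against 1136 to 1973 CPM. Overlap of separate intervals is not an interval of the ratio, so it does not place the other genes within counting error.

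Both granzymes named here had their highest level in control. Gzma was 1.87-fold lower in room air than in control (1.52 to 2.32) and 1.27-fold lower in aneurysm than in control (1.12 to 1.44). The room air value depends on the Cd3 limit: the 8 cells outside by 1 Cd3 UMI had 9698 CPM of Gzma, and with them the ratio to control was 1.20-fold lower. Gzmb stood at 1708, 1316 and 1194 CPM, with overlapping intervals in room air and both other libraries, and was 1.43-fold lower in aneurysm than in control (1.07 to 1.89). Prf1, the pore-forming perforin, had only 3, 1 and 14 UMIs and Ifng 0, 2 and 5, so differences in either were not detectable at this depth. These 2 genes lie below the 20 UMIs required for naming and were added after their values were seen.

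Ccl5, which encodes the chemokine RANTES (chr11:83525778-83530518), was the most abundant effector gene, at 22434 CPM in control, 14941 with room air and 14384 in aneurysm. It was found in 18 of 18, 10 of 11 and 57 of 60 members. Ccl4, which encodes MIP-1β (chr11:83662584-83664683), stood at 9270, 5956 and 865 CPM. Aneurysm was 10.7-fold below control (9.004 to 12.8), and between 7.73- and 11.5-fold below under the alternatives computed. This level came from few cells. In control 9 of 18 members had a Ccl4 UMI, and the 4 highest had 135, 105, 44 and 36 of 331. In room air 1 member had 178 of 181. In aneurysm 23 of 60 had one, and the highest was 48 of 215. The highest cell of aneurysm thus lay below the 2 highest of control. After thinning, the shares of members with a UMI were 40.5%, 19.96% and 21.6%. Without the member with most Ccl4 in each library, aneurysm was 6.38-fold above room air in place of 6.89-fold below, so the order of these libraries is set by 1 cell.

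Xcl1, which encodes the lymphotactin that attracts cross-presenting dendritic cells (chr1:164931644-164935527), stood at 2493, 1185 and 776 CPM. Aneurysm was 3.21-fold below control (2.47 to 4.15), but 1.83-fold below when members needed 2 receptor UMIs, a step that leaves out 2 control members. Of the 89 Xcl1 UMIs in control, 34 lay in 1 cell. Shares of members with an Xcl1 UMI were close, at 10 of 18, 6 of 11 and 32 of 60.

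**Figure D4:**
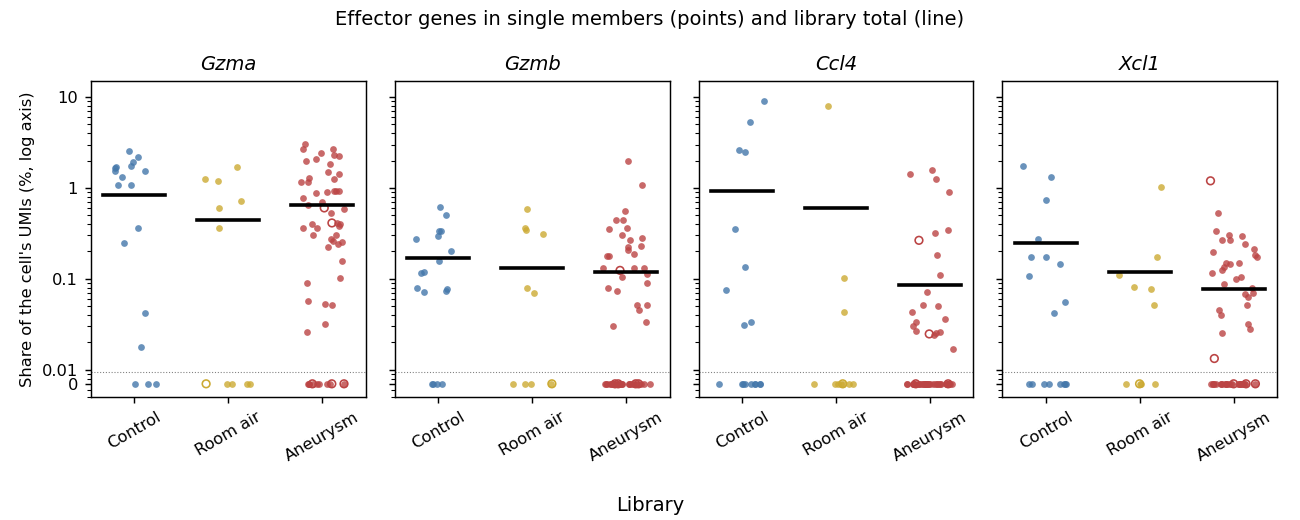
Share of each member's UMIs from Gzma, Gzmb, Ccl4 and Xcl1 on a log axis, 1 point for each cell, with cells without a UMI on the lowest line, open circles for the 6 members rich in myeloid genes and black lines for the library total. Gzma is spread over many cells, while the Ccl4 total of room air rests on 1 cell with 178 of 181 UMIs.

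For room air against control, 502 genes had 20 or more UMIs in both libraries together, of which 50 (9.96%) were at least 2-fold higher and 54 (10.8%) at least 2-fold lower in room air. The median log2 ratio was -0.18. Bcl2, an inhibitor of apoptosis, stood at 168 CPM in control members and 790 in room air, which is 4.70-fold higher (1.87 to 14.1). It was also 3.16-fold higher in aneurysm than in control (1.41 to 8.76), at 531 CPM, and was found in 5 of 18, 8 of 11 and 50 of 60 members. In B cells Bcl2 stood at 92.8, 143 and 150 CPM, lower than in members of the same library. Nkg7-positive T cells went the other way, with 452 CPM in control, 266 with room air and 290 in aneurysm. Bcl2 in the members was thus higher in both ApoE-/- libraries than in control, in comparisons that share the control library. The numbers of members with a Bcl2 UMI are not adjusted for depth.

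Some heat shock genes were higher in room air. Of 6 tested, 2 were at least 2-fold higher and 0 lower, with a median log2 ratio of 0.83. Hspa8, which encodes the chaperone HSC70, stood at 1428 CPM in control, 4377 with room air and 2288 in aneurysm members. Its level in B cells was 1183, 3234 and 1667 CPM, so the same order was found outside natural killer cells. Dnaja1, its co-chaperone, was 2.59-fold higher in room air than in control (1.37 to 5.12), with 292 and 764 CPM in B cells.

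Some receptor genes of natural killer cells were lower in room air than in control. Of 3 inhibitory and CD94 receptor genes tested, 2 were at least 2-fold lower, with a median log2 ratio of -1.43. This was 0 of 2 without the largest member of each library and 1 of 5 with at most 1 Cd3 UMI allowed. Klre1 was 2.70-fold lower (1.54 to 4.97), 2.22-fold lower with at most 1 Cd3 UMI allowed and 1.997-fold lower without the largest member of each library. Of 8 granule genes tested, 3 were at least 2-fold higher (Ctsc, Ctsd and Lamp1) and 1 lower (Serpinb9), with a median log2 ratio of -0.01. Without the members rich in myeloid genes 0 of 6 were higher and 1 lower. Ctsd then fell short of 2-fold, while Ctsc and Lamp1 had too few UMIs to be tested. Ctsc still stood at 442 CPM in room air against 112 in control (11 and 4 UMIs), and Lamp1 at 482 against 168 (12 and 6 UMIs). Serpinb9, a serpin that protects the cell from its own granzyme B, stood at 644 CPM in control and 165 in room air, 3.91-fold lower (1.46 to 13.2), and 2.52-fold lower when members needed 2 receptor UMIs. Cd7, a surface protein of lymphocytes, had 30 UMIs in control and 3 in room air, a ratio of 8.51-fold lower (2.65 to 43.6), and 3.86-fold lower without the largest member of each library. Of 7 genes of conventional natural killer cells tested, 4 were at least 2-fold lower in room air, but only 1 of 7 without the members rich in myeloid genes, and 1 of 11 with at most 1 Cd3 UMI allowed.

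Other genes named for room air against control had these values. Junb, an AP-1 transcription factor, was 4.70-fold higher (1.71 to 16.0), while the related Jund was 2.49-fold lower (1.33 to 4.95) and stood at 919 CPM in control and 414 CPM in room air B cells. Ctsd, a lysosomal protease, was 2.39-fold higher (1.48 to 3.95), but 1.91-fold without the member rich in myeloid genes, and its level in B cells was 83.5 CPM in control and 422 CPM in room air. Spp1, which encodes the secreted protein osteopontin, had 22 UMIs against 1 (25.9-fold, 4.18 to 1067), but stood at 720 CPM in room air B cells, close to the 724 CPM in the members. Anxa2, a membrane-binding annexin, was 2.61-fold lower (1.43 to 5.03), and Gimap3, a GTPase of lymphocyte survival, was 3.40-fold lower (1.36 to 10.2). With at most 1 Cd3 UMI allowed both fell short of 2-fold, at 1.797 for Anxa2 and 1.67 for Gimap3. Genes of MHC class II were also higher: Cd74 had 18 UMIs in control and 333 in room air, of which 247 lay in 1 cell, and B cells, which express it, had 31409 and 30064 CPM.

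For aneurysm against control, 2084 genes were tested, of which 325 (15.6%) were at least 2-fold higher and 133 (6.38%) at least 2-fold lower in aneurysm, with a median log2 ratio of 0.07. Klra9 was 4.83-fold lower (3.41 to 6.82), and 3.04-fold lower when each member counted equally. Klra7 was 2.17-fold higher (1.31 to 3.86). Of 6 Ly49 genes tested, these were the 2 past 2-fold. Both kept 2-fold or more under all alternatives computed.

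Further genes lower in aneurysm than in control were of several kinds. Ly6c2, a surface protein of mature lymphocytes, had 17 UMIs in control and 20 in aneurysm, at 476 and 80.4 CPM, but 17.2% of its windows occur in the near-identical Ly6c1, and the aneurysm level lay below the 150 CPM in B cells. Tnfrsf9, which encodes the costimulatory receptor 4-1BB, stood at 504 CPM in control, 230 with room air and 177 in aneurysm. It was 2.85-fold lower in aneurysm than in control (1.55 to 5.03), and 1.85-fold lower when members needed 2 receptor UMIs. Jund was 3.17-fold lower (2.14 to 4.64), beside 919 and 433 CPM in B cells of control and aneurysm.

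Higher in aneurysm than in control was Fgl2, a fibrinogen-like protein secreted by lymphocytes and macrophages, with 0 UMIs in control, 3 with room air and 70 in aneurysm, found in 35 of 60 members. Against a floor of 3 counts over the control members it was at least 3.35-fold higher. Fam107b had 0, 3 and 62 UMIs and was at least 2.97-fold higher than in control. Satb1, a chromatin organiser of lymphocytes, and Abcg1, a cholesterol exporter, each had 0 UMIs in control and 42 in aneurysm, at least 2.01-fold higher against the floor, with a lower limit of 1.56 for counting error. Without the member with the most UMIs of the gene these bounds were 1.77 for Satb1 and 1.76 for Abcg1, short of 2-fold. Rgs1, a regulator of chemokine receptor signalling, had 1 UMI in control and 54 in aneurysm (7.75-fold, 1.33 to 312), and was at least 1.97-fold higher against the floor without its highest member in each library, which leaves 0 UMIs in control. Control members had a low depth, where 3 counts are 84.0 CPM. B cells had 60.3 CPM of Satb1 and 78.9 CPM of Fam107b in control, and 77.1 and 142 CPM in aneurysm. Rgs1 was also higher in B cells of aneurysm than of control, at 70.8 against 4.64 CPM. The same held for Abcg1, at 102 against 37.1 CPM, and for Fgl2, at 49.1 against 27.8 CPM. The rise in these genes was thus found outside natural killer cells too.

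For aneurysm against room air, 2053 genes were tested, of which 267 (13.0%) were at least 2-fold higher and 154 (7.50%) at least 2-fold lower in aneurysm, with a median log2 ratio of 0.03. Ctla2a, a cysteine protease inhibitor, had 12 UMIs in control, 1 with room air and 143 in aneurysm, a ratio of 17.5 over room air (3.09 to 695). Car2, a carbonic anhydrase, had 7, 1 and 124 UMIs, a ratio of 15.2 (2.67 to 603). Cd7 was 6.72-fold higher (2.26 to 32.9). These 3 differences narrowed when the 8 room air cells outside by 1 Cd3 UMI were added, to 2.49 for Ctla2a, 1.81 for Car2 and 4.36 for Cd7.

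Of 7 genes of early natural killer stages, 4 were at least 2-fold higher in aneurysm than in room air and 0 lower, with a median log2 ratio of 1.32. Against control, 0 of the 7 were at least 2-fold higher and 1, Xcl1, was lower. This count changed with the members used: 2 of 7 were higher without the members rich in myeloid genes, and 3 of 7 when each member counted equally. Of 8 heat shock genes, 0 were higher and 3 at least 2-fold lower than in room air, with a median log2 ratio of -0.95. Dnaja1 was 2.87-fold lower (1.87 to 4.31). In B cells it was 2.90-fold lower, at 264 CPM in aneurysm and 764 CPM in room air. The heat shock list as a whole stood at 3981 CPM in aneurysm and 7714 CPM in room air B cells. The same direction was thus found outside natural killer cells. Tsc22d3, a glucocorticoid-induced leucine zipper protein, was 3.37-fold lower (1.67 to 6.45), or 1.83-fold with at most 1 Cd3 UMI allowed, with 460 CPM in members and in B cells of room air, and Pde4b, a phosphodiesterase of cyclic AMP, was 5.46-fold lower (1.93 to 14.5). Of 25 genes of oxidative phosphorylation, 2 were higher and 0 lower.

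Gzma varied widely among the members of each library. Among the 83 members that were not rich in myeloid genes it took from 0% to 2.57% of a cell's UMIs in control (median 1.20%), from 0% to 1.70% with room air (median 0.479%) and from 0% to 3.06% in aneurysm (median 0.398%). Members at 0.5% or more were 11 of 18 in control, 5 of 10 with room air and 25 of 55 in aneurysm. Members below 0.2% were 5, 4 and 17, and 2, 1 and 13 lay between. These limits were set after the values were seen, so the classes are ends of a range, not types. Median depth did not separate them in aneurysm, at 3526 UMIs in high and 3331 in low members, but in control it was 1496 in high and 2395 in low members.

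Within aneurysm, 1141 genes were compared between the ends of this range, of which 56 (4.91%) were at least 2-fold higher and 44 (3.86%) at least 2-fold lower in Gzma-high members. Gzmb stood at 2479 CPM in high and 358 CPM in low members, a 6.92-fold ratio (4.46 to 11.3). Ccl4 was 6.43-fold higher (3.63 to 12.4) and Ccl5 2.71-fold higher (2.47 to 2.98). Cma1, a chymase gene, had 30 UMIs against 2, and Klf2, a transcription factor of lymphocyte circulation, was 3.18-fold higher (2.02 to 5.22). Of 8 genes of late natural killer stages other than Gzma, 6 were at least 2-fold higher and 0 lower. Their median log2 ratio was 1.498 beside -0.06 over all genes compared. This list includes Ccl5, so the count is not separate from the genes just named.

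Gzma-low members had more of the genes of early stages. Ltb, which encodes lymphotoxin β, stood at 95.7 CPM in high and 766 CPM in low members, 8.00-fold apart. Emb, an adhesion protein, was 4.16-fold lower in high members, Xcl1 3.22-fold, Cxcr3, a receptor for interferon-induced chemokines, 3.45-fold, and Cd7 2.41-fold. Of 7 early-stage genes, 5 were at least 2-fold lower in high members and 0 higher, with a median log2 ratio of -1.27. Of 5 genes of type 1 innate lymphoid cells and tissue residence, 3 were at least 2-fold lower in high members and 0 higher, with a median of -1.69. Both lists hold Ltb, Xcl1, Ctla2a, Il7r and Kit, so they are not separate evidence. Because they hold Ltb and Xcl1, their counts are also not separate from the genes just named. The part of type 1 innate lymphoid cells in the difference was not tested. Itga1, which marks them, had 0 UMIs in members, but 18 of the 20 genes on the list of such cells and tissue residence were detected. Of the receptor genes, Klrk1, Klrd1 and Klra7 were close at both ends, with ratios of 0.980, 1.08 and 1.01. Of 6 Ly49 genes compared, however, 2 were at least 2-fold higher in high members and 0 lower, with a median log2 ratio of 0.77. These were Klra4, 4.39-fold higher (2.49 to 8.33), and Klra3, 2.03-fold higher (1.18 to 3.67). Intervals from summed UMIs do not cover the spread between cells.

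The other libraries, with far fewer cells, had the same direction for several of these genes. Ccl4 had 224 UMIs in Gzma-high against 1 in Gzma-low control members, and 135 of the 224 lay in 1 cell. In room air it had 181 against 0, but 178 of these lay in 1 cell, so the room air direction rests on that cell. Gzmb had 40 against 12 and 38 against 0. Emb had 0 in high against 6 in low control members and 0 against 5 in room air, and Cxcr3 0 against 7 and 0 against 6. Xcl1 went the other way, at 2419 CPM in high and 1070 CPM in low control members and at 2435 and 668 CPM in room air, and Klra4 had 2 UMIs against 6 in control.

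**Figure D5:**
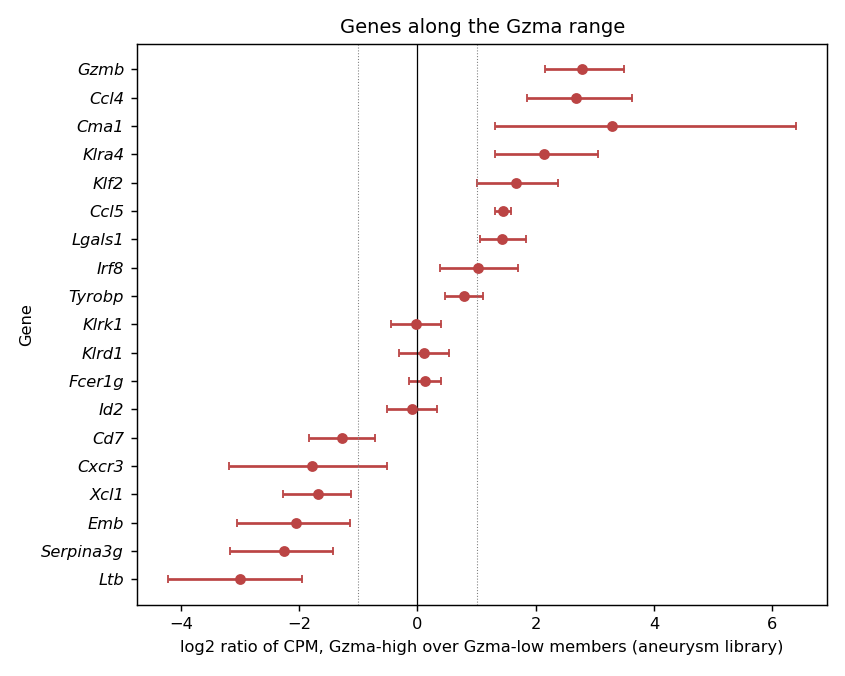
Log2 ratio of CPM between Gzma-high (25) and Gzma-low (17) natural killer cells of the aneurysm library for 19 genes, with exact conditional 95% intervals that cover counting error only; dotted lines mark 2-fold. Gzmb, Ccl4 and Cma1 lie highest and Ltb lowest, while Klrk1, Klrd1, Fcer1g and Id2 lie near 0.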

How the data were processed

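Cells of 3 pooled aorta libraries were measured with 10x Genomics 3′ v2 chemistry. The deposited values are UMI counts per gene and barcode with no normalization; Cell Ranger, STAR and mm10 are named in the submitters' processing notes, and versions are not given in the sources used here. A smoke group that the labels count was not analysed here. Barcodes with 200 genes or more and at most 10% mitochondrial UMIs were kept. Doublets were not removed in the main analysis; removing those with high Scrublet scores (scanpy 1.11.5) is an alternative. UMIs of the members were summed per library and divided by their total (CPM). A gene was compared with 20 UMIs or more in both libraries together and counted at 2-fold or more; 0 was set to 3 counts over the group. Intervals are exact: Poisson for levels, conditional binomial for ratios, Clopper-Pearson for shares, at 95% (scipy 1.17.1). The ratio calculation was tested on simulated data. With 1 library per group no test was possible.

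Named genes were members of gene lists with 20 UMIs or more over all members, and for each comparison the 12 higher and 12 lower genes (15 against T cells) whose interval bound lay farthest from 1, found in at least 3 cells, with no cell holding 50% or more of the UMIs and at or above the B cell level. The members and lists were chosen with earlier results of these data known. Coordinates are from GENCODE for mm10.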

Additional observations from a re-analysis of the deposited data

How the results depend on the processing

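No paired analysis was possible because each group has 1 library. The alternative with T cell receptor constant genes was not run. Of the counts and shares, 80 values stayed within 1.5 times or within their interval and 14 moved. In room air against control the percentage higher was 6.46 with 2 receptor UMIs and 6.03 with 50 UMIs per gene, and the percentage lower was 4.02 with 50 UMIs, 6.49 without the largest member and 6.22 with at most 1 Cd3 UMI. In aneurysm against room air it was 7.77 higher and 3.45 lower with 50 UMIs, and 8.63 higher and 17.5 lower with 10 UMIs. In aneurysm against control it was 10.1 higher and 3.45 lower with 50 UMIs, and 11.5 lower with 10 UMIs. Against T cells 2.52 were lower with 2 receptor UMIs and 1.94 without members rich in myeloid genes. The low-count limit alters which genes are tested; other causes were not tested. Among ratios of single genes 1210 stayed, 44 moved and 2 reversed: Car2, log2 ratio, room air against control, was 0.51 with at most 1 Cd3 UMI in place of -2.57, and Ccl4, log2 ratio, aneurysm against room air, was 2.67 without its highest member in each library in place of -2.78. Limits set after seeing the data were those on Cd3, myeloid genes and the highest member. Comparisons with room air rest on 11 cells, and in control and room air a gene below 84.0 or 98.7 CPM had under 3 counts.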

Other observations

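Few members carried RNA of dividing cells. Of 7 genes of mitosis, 1 control member held 37 of the 38 UMIs found in control, in a cell of 5643 UMIs, and 1 aneurysm member held 20 of 25, in a cell of 9546 UMIs. Room air members had 1 UMI in all. These are the values of single cells and allow no comparison between the libraries.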
